A study of Mus musculus with 18 samples.

Results

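The genes described here are 35 genes of glucose uptake and glycolysis: the glucose carriers, the enzymes from hexokinase to pyruvate kinase, the enzymes that set the fate of pyruvate, the lactate carriers and the entry enzyme of the pentose phosphate pathway. They are the rows of the count table whose Ensembl identifier carries one of the listed symbols in the annotation of GRCm38 and which hold at least 10 counts over the 18 samples. All 35 listed symbols met this rule, out of 49671 genes in the table. RNA was sequenced from mouse embryonic stem (ES) cells embedded in Matrigel, a hydrogel of extracellular matrix, in 6 groups of 3 samples. Before that, all lines had been kept on gelatine in 2i/Lif, so every group came from cells already exposed to both inhibitors. No group was taken before the culture in Matrigel, so rises and falls below name the direction of a comparison. A fall in one culture and a rise in the culture it is compared with cannot be told apart. E14 cells, a wild-type line at passage 20, spent 48 h in N2B27 medium with one of 4 additions. DMSO was the solvent control. CH was 3 µM of CHIR99021, which blocks Gsk3 and so turns on Wnt/β-catenin signalling. 2i was the same dose of CHIR99021 plus PD0325901, which blocks Mek, at 0.4 µM. Fgf2/Activin was 12 ng/ml of Fgf2 plus 20 ng/ml of Activin A. A second line at passage 25, labelled as derived from Acr-EGFP transgenic mice, carries floxed alleles of Esrrb, an orphan nuclear receptor of naive pluripotency, and the tamoxifen-inducible Cre recombinase MerCreMer. It was grown for 24 h in CHIR99021 at 3 µM, either untreated (Esrrb fl/fl) or after 1 day with 4-hydroxytamoxifen (4OHT; Esrrb Δ/Δ), so both of its groups carry Cre and both received CH, while only the Δ/Δ group saw 4OHT. The time in Matrigel, line and passage differ between the 2 sets of samples and cannot be told apart between them, and values of the lines are therefore only set side by side.

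Glycolysis splits glucose into pyruvate in the cytosol, and the cell can either reduce pyruvate to lactate and export it or send it into mitochondria. Most steps are run by families of related enzymes that differ in regulation, and cells change which relative they use as well as how much. Pluripotent cells are known for a high glycolytic flux, and the passage from the naive to the primed state of pluripotency is known for a shift towards glycolysis.

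Between 25388139 and 37158661 reads were counted on genes in the wild-type samples and between 19915222 and 20140699 in the Esrrb line. Esrrb itself had 2680, 2146 and 2109 counts in Esrrb fl/fl and 1211, 1333 and 1250 in Esrrb Δ/Δ, so the labels and the counts went the same way. The counts cover all exons, and transcripts that lack only the floxed segment are counted too. The listed markers of pluripotent cells (Pou5f1, Sox2, Nanog and others, 8 genes) were all present in every group. They summed to 2637 to 2758 CPM, counts scaled to library size, in DMSO and 3032 to 3753 in CH. In Fgf2/Activin they summed to 2908 to 2937 and in 2i to 4289 to 4482. In Esrrb fl/fl they summed to 3867 to 4166 CPM, against 2314 to 2503 in Esrrb Δ/Δ. All 8 were lower there at an edgeR adjusted p under 0.01, beside 19.9% of all genes, led by Sox2 (log2 fold change -2.41 ± 0.12 SE) and Fgf4 (-2.25 ± 0.09 SE). The 5 mesendoderm markers, which mark cells leaving pluripotency, summed to 442 to 671 CPM in CH against 8.97 to 14.1 in DMSO. In 2i they summed to 83.5 to 118, against 11.7 to 17.6 in Fgf2/Activin. Of 4 tested, 3 had a log2 fold change above 0 in CH and 1 under 0. In 2i, T rose (log2 fold change 7.32 ± 0.34 SE) while the other 3 lay under 0, among them Eomes (-1.90 ± 0.39 SE). The same markers summed to 337 to 490 CPM in Esrrb Δ/Δ against 52.8 to 76.1 in Esrrb fl/fl. Of 3 tested there, 2 lay above 0 and 1 under 0. The 4 neuroectoderm markers summed to 17.7 to 49.4 CPM in CH and 2i and to 117 to 172 in DMSO and Fgf2/Activin. Of these 4, 3 had a log2 fold change under 0 in CH and 2 in 2i. They summed to 213 to 215 CPM in Esrrb Δ/Δ and 48.6 to 51.5 in Esrrb fl/fl. Of 3 tested there, Nes rose (log2 fold change 2.74 ± 0.15 SE) and 2 fell, among them Pax6 (-1.70 ± 0.29 SE). The sums of the mesendoderm and neuroectoderm markers thus do not give the direction of each marker. The part of any of these lists in the results was not tested. The markers of extraembryonic endoderm, trophectoderm and fibroblasts summed to at most 51.3 CPM in any sample. Replicate 1 stood apart from replicates 2 and 3 in every group: of the 35 genes, it was above both others in 29 in Fgf2/Activin and 27 in 2i, and below both in 25 in Esrrb fl/fl. Values are therefore given in the order of replicates 1, 2 and 3. The labels do not say whether replicates are separate cultures, and p-values measure the spread between these samples, which may be technical. The chi-square of the counts per gene, a measure of how far 2 samples differ, was 1.46 to 8.57 between replicates 2 and 3 of a group. Between replicate 1 and either of them it was 11.8 to 65.9. Replicates 2 and 3 were thus much more alike, and the 3 samples of a group may not be 3 independent ones. In RNA from whole cultures, fewer cells of a type and less RNA per cell cannot be told apart.

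The 35 genes together took 1.84 to 2.19% of all counts in DMSO and 1.89 to 2.11% in Fgf2/Activin, against 1.55 to 1.67% in CH and 1.67 to 1.89% in 2i. In the Esrrb line they took 1.31 to 1.69% in Esrrb fl/fl and 1.06 to 1.23% in Esrrb Δ/Δ. The ranges of CH and DMSO did not overlap, nor did those of the Esrrb groups, and the range of 2i touched that of Fgf2/Activin. Per kilobase of exon, Aldoa and Pkm had the highest mean levels among the 35 in DMSO, 2i, CH and Fgf2/Activin, and Pkm and Aldoa or Eno1 in the Esrrb line. The lowest were regulators and minor relatives such as Pfkfb2, Pfkfb4, Pdk2 and Eno2.

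A gene was called when edgeR's quasi-likelihood test gave an adjusted p under 0.01 and the log2 fold change was beyond 1 in size. Between CH and DMSO, 2 of the 35 genes were called higher (5.71%), beside 7.51% of the 16413 genes tested, and 7 were called lower (20.0%), beside 10.2%. Between 2i and Fgf2/Activin, 5 were called higher (14.3%), beside 9.13%, and 5 lower (14.3%), beside 14.4%. Between Esrrb Δ/Δ and Esrrb fl/fl, 2 were called higher (5.71%), beside 12.8% of the 14893 genes tested in that line, and 4 lower (11.4%), beside 3.87%. Some of these counts rested on single libraries. Called higher in CH were 4 genes with same-numbered samples blocked or without DMSO replicate 1, and 1 without DMSO replicate 3. Called lower in CH were 3 without CH replicate 2 and 4 without DMSO replicate 2, and called lower in 2i were 3 without 2i replicate 3. In Esrrb Δ/Δ, 1 was called higher without replicate 3 of either group, and 2 lower without Esrrb fl/fl replicate 3. Over all genes, higher calls outnumbered lower ones after the deletion, and among the 35 genes lower calls outnumbered higher ones. On adjusted p alone, without the minimum fold change, 4 were higher and 12 lower in CH, beside 13.7 and 15.3% of all genes. In 2i, 8 were higher and 10 lower, beside 17.8 and 19.9%. In Esrrb Δ/Δ, 4 were higher and 16 lower, beside 24.6 and 19.9%. The median log2 fold change of the 35 genes was -0.33, -0.33 and -0.34 in the same order, beside medians over all tested genes of -0.00220, 0.00214 and 0.00214.

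Between 2i and CH, edgeR called 0 of the 35 genes in either direction, beside 0.317% of all genes higher and 1.67% lower, with 6 higher and 1 lower at an unadjusted p under 0.05 and 0 called by DESeq2. The widest of these gaps were those of Hk1 (log2 fold change 0.96 ± 0.39 SE, edgeR adjusted p = 0.188) and Pfkp (log2 fold change 0.88 ± 0.24 SE, edgeR adjusted p = 0.054), and in both genes the 3 samples of 2i lay above the 3 of CH. With same-numbered samples blocked, Hk1 passed on adjusted p but not on its size (log2 fold change 0.98, edgeR adjusted p = 0.000284). So did Gapdh (0.30, edgeR adjusted p = 0.00188), Gpi1 (0.39, edgeR adjusted p = 0.00478) and Aldoa (0.42, edgeR adjusted p = 0.00665), all higher in 2i. Between Fgf2/Activin and DMSO, 1 gene was called lower, Slc2a1, beside 0.347% of all genes, and 0 were called higher, beside 0.902%, with 3 higher at an unadjusted p under 0.05 and 0 called by DESeq2. The comparisons of the E14 cultures share samples (CH with 2i and DMSO, for instance), so their values are given side by side and were not correlated.

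**Figure D1:**
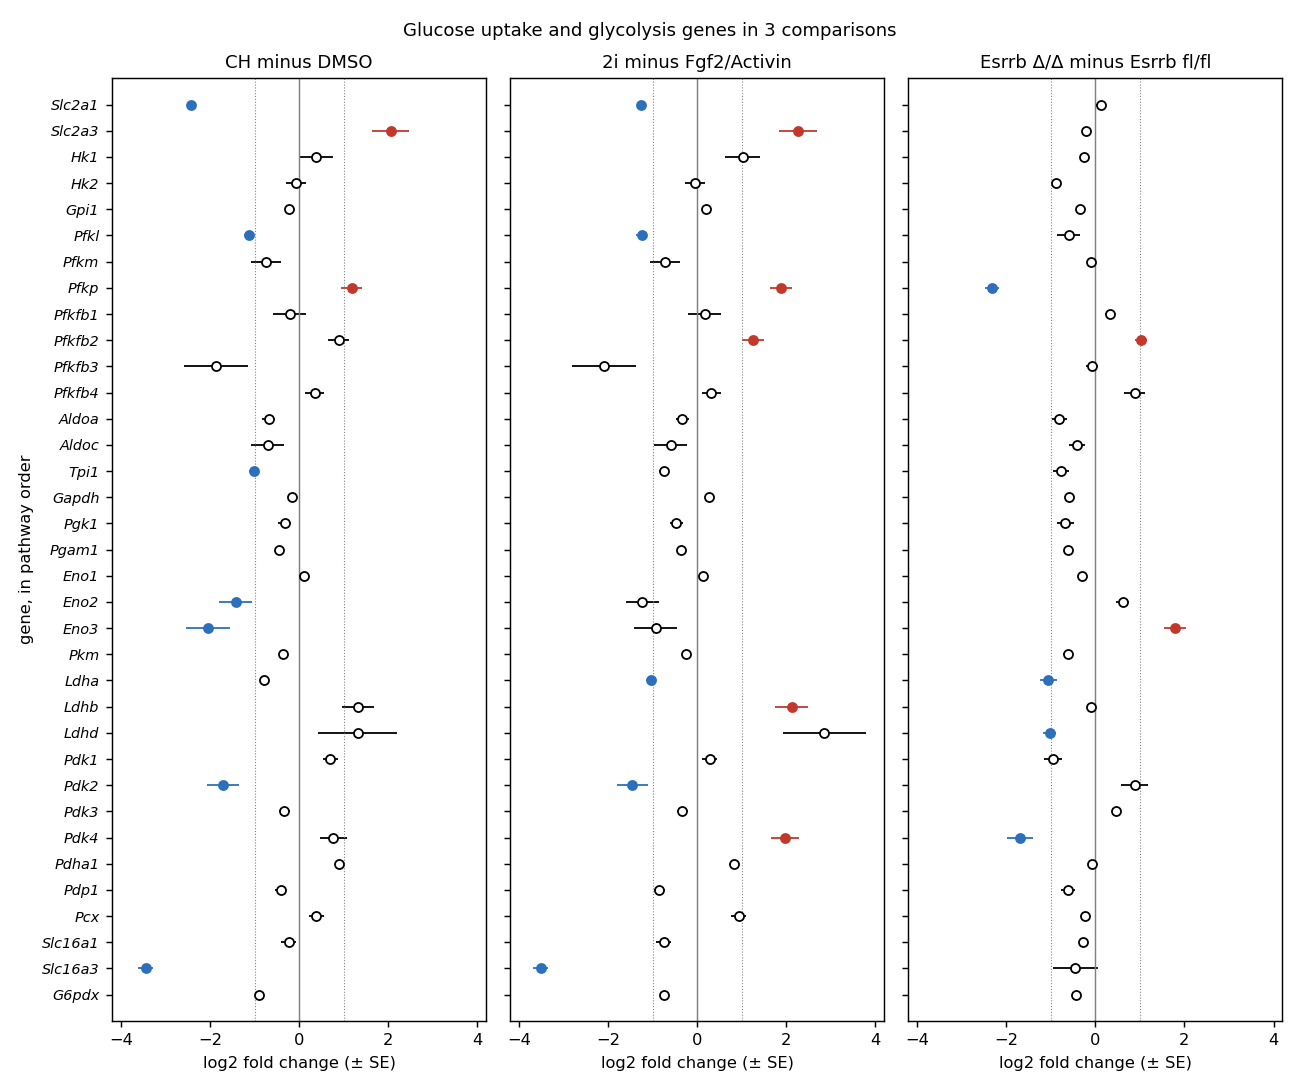
Log2 fold change (horizontal axis, with the standard error as a bar) of the 35 genes in pathway order (vertical axis) for CH minus DMSO, 2i minus Fgf2/Activin and Esrrb Δ/Δ minus Esrrb fl/fl, with 3 samples per group. Filled red points were called higher and filled blue points lower, open points were not called, and dotted lines mark a log2 fold change of 1 in size. Slc2a1, Pfkl, Pdk2 and Slc16a3 lie left of the line and Slc2a3 and Pfkp right of it in both panels of the E14 cultures, whereas in the Esrrb line Pfkp lies at -2.32 and Slc2a1 near 0.

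The cells in CH and in 2i held less transcript of the glucose carrier Slc2a1, and more of its relative Slc2a3, than the cells in DMSO and Fgf2/Activin. Slc2a1 encodes Glut1, the widespread carrier of basal glucose uptake, and Slc2a3 encodes Glut3, a carrier of high affinity. Slc2a1 had 1397, 1523 and 1419 CPM in replicates 1, 2 and 3 of DMSO and 767, 705 and 652 CPM in Fgf2/Activin, but 250.5, 267 and 288 in CH and 274, 308 and 303 in 2i. None of these ranges overlapped except those of CH and 2i. Slc2a1 was 5.39-fold lower in CH than in DMSO (log2 fold change -2.43 ± 0.08 SE, edgeR adjusted p = 1.34e-08) and 2.40-fold lower in 2i than in Fgf2/Activin (log2 fold change -1.26 ± 0.08 SE, edgeR adjusted p = 3.47e-07). It was also the gene called between Fgf2/Activin and DMSO (log2 fold change -1.03 ± 0.08 SE, edgeR adjusted p = 2.83e-05), at the edge of the minimum fold change. The value was -0.97, edgeR adjusted p = 0.000293 without Fgf2/Activin replicate 3 and -0.99, edgeR adjusted p = 0.000228 without DMSO replicate 2. Slc2a3 went the other way, with 278, 355 and 106 CPM in DMSO, 283, 189 and 162 in Fgf2/Activin, 1534, 748 and 799 in CH and 1224, 920.2 and 904 in 2i. The lowest sample of CH and 2i was above the highest of the other cultures, and replicate 1 of CH and of 2i was the highest of its group. Slc2a3 was 4.17-fold higher in CH than in DMSO (log2 fold change 2.06 ± 0.42 SE, edgeR adjusted p = 0.00225) and 4.81-fold higher in 2i than in Fgf2/Activin (log2 fold change 2.27 ± 0.42 SE, edgeR adjusted p = 0.000949). The call between CH and DMSO was lost in a fit of only these 6 samples (2.06, edgeR adjusted p = 0.0164). Within the Esrrb line, Slc2a1 had 190.4, 232 and 234 CPM in Esrrb fl/fl and 213, 253 and 245 in Esrrb Δ/Δ, and Slc2a3 had 606, 610.1 and 587 and 565, 498 and 488. Neither was called there (log2 fold change 0.12 ± 0.09 and -0.22 ± 0.06 SE).

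As a share of the summed CPM per kilobase of both carriers, Slc2a3 made up 3.50 to 10.1% in DMSO and 10.7 to 15.1% in Fgf2/Activin. In CH it made up 57.3 to 74.8%, in 2i 59.1 to 68.3%, in Esrrb fl/fl 54.9 to 60.6% and in Esrrb Δ/Δ 48.8 to 56.2%. Slc2a1 was thus the larger of the pair in the cultures without CHIR99021, and Slc2a3 in every sample of CH and 2i. These shares use the length of all annotated exons, which can be longer than the transcript a cell makes, so the level of a share depends on annotated lengths, which are the same for every sample.

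**Figure D2:**
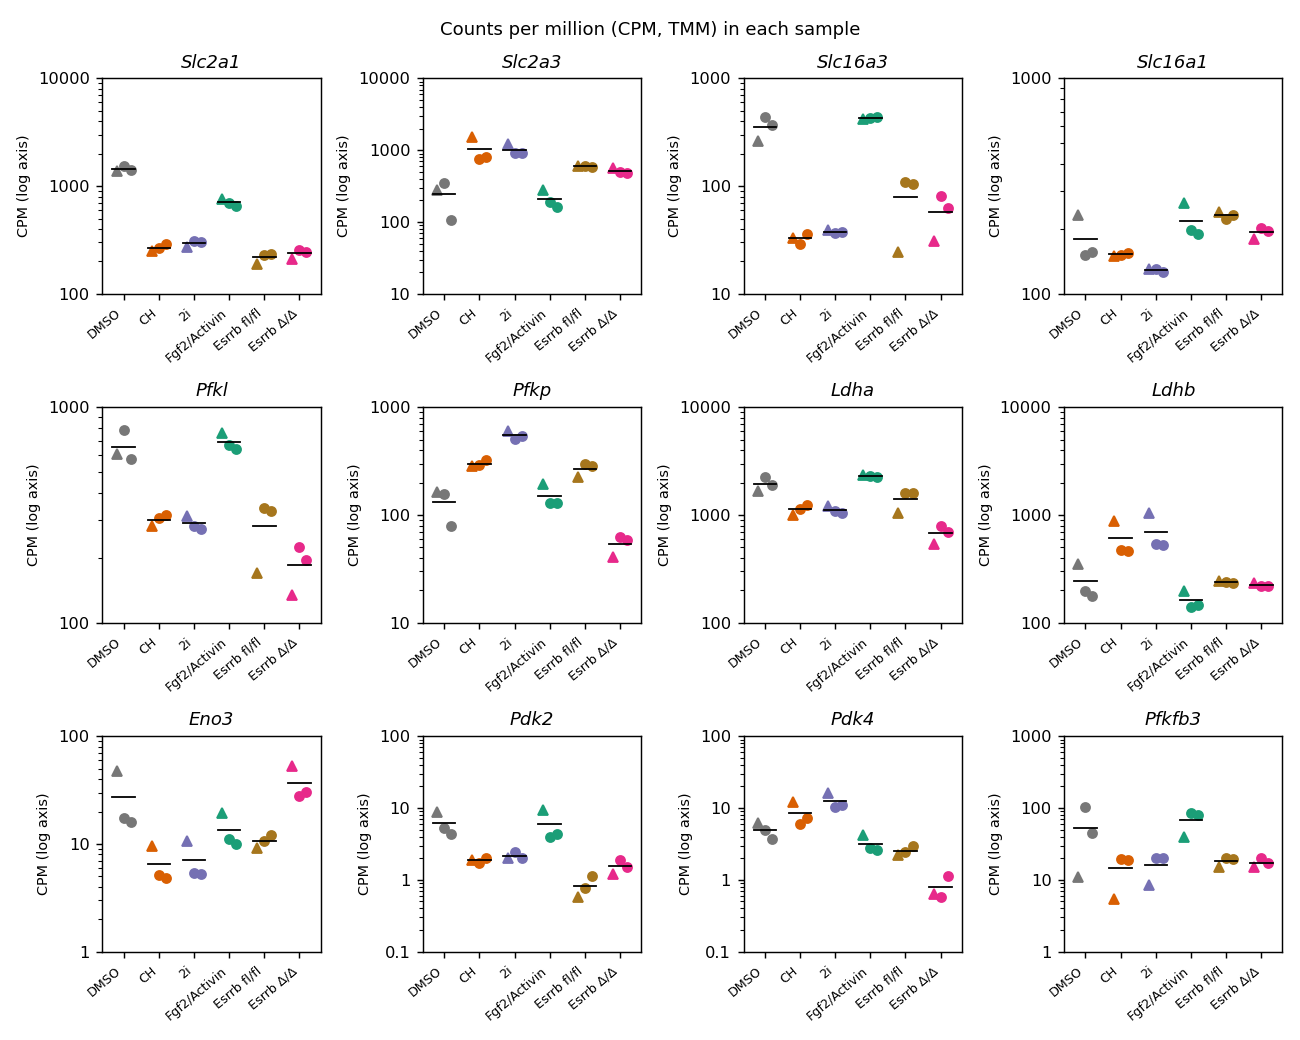
TMM-scaled CPM (vertical axes, logarithmic) of 12 of the genes in each sample of the 6 groups (horizontal axes). Triangles are replicate 1, circles replicates 2 and 3, and lines the group means. Slc2a1 and Slc16a3 are low and Slc2a3 and Ldhb high in CH and 2i, Pfkp is lowest in Esrrb Δ/Δ, and the triangle stands off from the circles in many groups.

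The promoters of Slc2a1 and Slc16a3, the genes of glucose import and lactate export with the largest falls in CH, are shown because both hold the letters ACGTG, the core of the element through which hypoxia-inducible factors and other E-box binders act. The sequences are RefSeq's for GRCm38.p6, 300 bases on the gene's strand from 250 before to 50 after its start, and capitals mark ACGTG on either strand. Slc2a1 lies at chr4:119108495-119108794, plus strand, and Slc16a3 at chr11:120948817-120949116, plus strand.
Slc2a1: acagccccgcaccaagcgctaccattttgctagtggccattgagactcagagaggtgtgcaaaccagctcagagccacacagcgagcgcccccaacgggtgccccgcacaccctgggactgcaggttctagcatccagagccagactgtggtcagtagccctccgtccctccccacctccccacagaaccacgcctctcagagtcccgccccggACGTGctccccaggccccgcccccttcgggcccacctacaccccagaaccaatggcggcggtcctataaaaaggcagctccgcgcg
Slc16a3: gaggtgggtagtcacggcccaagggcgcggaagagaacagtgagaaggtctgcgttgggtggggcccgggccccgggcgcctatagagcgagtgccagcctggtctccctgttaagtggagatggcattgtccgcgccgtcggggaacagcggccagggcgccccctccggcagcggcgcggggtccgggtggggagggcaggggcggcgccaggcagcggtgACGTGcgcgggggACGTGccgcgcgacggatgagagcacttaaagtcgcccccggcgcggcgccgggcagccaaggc
The Slc2a1 window holds the letters in 1 place and the Slc16a3 window in 2. These letters stand in 19.6% of the 32851 promoter windows of the same length, a share read further on for all members. A match describes the sequence and is not a measured site.

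Hexokinase traps glucose in the cell as glucose 6-phosphate. Hk2, the inducible form, made up most of the family in every group, with 234, 484 and 336 CPM in DMSO, 268, 362 and 370.2 in CH, 304, 424 and 406 in Fgf2/Activin and 326, 382 and 388 in 2i. All 4 cultures overlapped, and edgeR called it in neither comparison of the E14 cultures (log2 fold change -0.08 ± 0.23 and -0.05 ± 0.23 SE). The Esrrb line had 300.2, 319.5 and 316 CPM in Esrrb fl/fl and 155, 181 and 168 in Esrrb Δ/Δ. Those groups did not overlap, and the difference passed on adjusted p but not on its size (log2 fold change -0.89 ± 0.06 SE, edgeR adjusted p = 1.06e-05). Hk1, the constitutive form bound to mitochondria, had 162, 89.7 and 91.2 CPM in 2i and 76.8, 45.8 and 46.1 in Fgf2/Activin. All 3 samples of 2i were higher, replicate 1 of each group was highest, and the gene was called only when same-numbered samples were blocked (log2 fold change 1.01, edgeR adjusted p = 1.92e-05 with the replicate block, and 0.0457 without it). Hk1 had 66.2, 41.9 and 27.0 CPM in DMSO and 87.7, 42.8 and 45.2 in CH, which overlapped. Its share of the hexokinase transcripts was 14.1 to 25.8% in 2i and 5.33 to 16.5% in DMSO. Gpi1, the isomerase of the next step, had 529.8 to 734 CPM in the E14 samples and G6pdx, which diverts glucose 6-phosphate into the pentose phosphate pathway, 166 to 213 CPM in DMSO and Fgf2/Activin and 96.2 to 115 in CH and 2i. G6pdx did not overlap between these cultures and passed on adjusted p alone (log2 fold change -0.90 ± 0.07 SE, edgeR adjusted p = 4.57e-06 for CH and log2 fold change -0.75 ± 0.07 SE, edgeR adjusted p = 1.04e-05 for 2i), and 13.6% of its exon bases also lie in Ikbkg.

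Phosphofructokinase commits glucose to glycolysis, and Pfkl and Pfkp, 2 of its 3 genes, moved in opposite directions between the E14 cultures. Pfkl, the liver type, had 608, 784 and 577 CPM in DMSO and 756, 667 and 639 in Fgf2/Activin, against 280.0, 307 and 317 in CH and 315, 281 and 272 in 2i. It fell in CH (log2 fold change -1.12 ± 0.12 SE, edgeR adjusted p = 2.31e-05) and in 2i (log2 fold change -1.25 ± 0.12 SE, edgeR adjusted p = 6.59e-06), with no overlap, and was -0.97, edgeR adjusted p = 3.75e-05 between CH and DMSO without DMSO replicate 2. Pfkp, the platelet type, had 163, 156 and 78.5 CPM in DMSO and 194, 128 and 129 in Fgf2/Activin, against 285, 293 and 322 in CH and 609, 511 and 537 in 2i. Every sample of CH and 2i was higher than every sample of the other cultures, and Pfkp rose in CH (log2 fold change 1.18 ± 0.24 SE, edgeR adjusted p = 0.00259) and in 2i (log2 fold change 1.88 ± 0.25 SE, edgeR adjusted p = 8.85e-05). Between CH and DMSO the call was lost without DMSO replicate 3 (0.91, edgeR adjusted p = 0.00207) and in a fit of only the 6 samples (1.18, edgeR adjusted p = 0.014). After deletion of Esrrb, Pfkp showed the largest change of the 35 genes, from 226, 301 and 283 CPM in Esrrb fl/fl to 41.0, 62.3 and 58.5 in Esrrb Δ/Δ. The groups did not overlap, and Pfkp was 5.00-fold lower after the deletion (log2 fold change -2.32 ± 0.16 SE, edgeR adjusted p = 1.01e-05). Pfkm, the muscle type, had 195, 116 and 108 CPM in DMSO and 111, 72.2 and 66.5 in CH, which overlapped through CH replicate 1. It was called in none of the 5 comparisons, with log2 fold changes of -0.75 ± 0.34, -0.72 ± 0.34 and -0.09 ± 0.05 SE in CH, 2i and Esrrb Δ/Δ. As a share of the phosphofructokinase transcripts per kilobase, Pfkp made up 4.70 to 7.54% in DMSO, 6.56 to 7.63% in Fgf2/Activin, 22.1 to 26.3% in CH and 34.3 to 39.6% in 2i. Its share was 21.0 to 23.4% in Esrrb fl/fl and 5.98 to 7.15% in Esrrb Δ/Δ, the latter in the range of DMSO.

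The bifunctional Pfkfb enzymes make and break fructose 2,6-bisphosphate, the activator of phosphofructokinase. Pfkfb3, the form with the strongest kinase activity, had 10.8, 104 and 44.5 CPM in DMSO and 39.2, 86.0 and 80.3 in Fgf2/Activin, against 5.45, 19.5 and 18.7 in CH and 8.46, 19.9 and 20.0 in 2i. Replicate 1 was the lowest of every one of these groups, and DMSO and CH overlapped through it. Pfkfb3 was called once same-numbered samples were blocked (log2 fold change -1.67, edgeR adjusted p = 0.00125 with the replicate block for CH, and -2.14, edgeR adjusted p = 0.000162 with the replicate block for 2i). Without the block it was not called (edgeR adjusted p = 0.0559 and 0.0308). It was called without the block for CH when DMSO replicate 1 was left out (-2.35, edgeR adjusted p = 0.00766) and for 2i in a fit of only the 6 samples (-2.09, edgeR adjusted p = 0.00387). Pfkfb2, the heart type, had 3.46, 3.02 and 2.89 CPM in Fgf2/Activin and 9.26, 6.52 and 6.53 in 2i, did not overlap and rose in 2i (log2 fold change 1.25 ± 0.24 SE, edgeR adjusted p = 0.00123). Between CH and DMSO it just missed the threshold (log2 fold change 0.89 ± 0.24 SE, edgeR adjusted p = 0.011), and passed it without DMSO replicate 1 (1.09, edgeR adjusted p = 0.00556). With Esrrb deleted, Pfkfb2 went from 6.27, 6.05 and 5.54 CPM to 11.8, 10.9 and 13.7, higher in all 3 Esrrb Δ/Δ samples, and was called (log2 fold change 1.03 ± 0.13 SE, edgeR adjusted p = 0.000201). That call was lost without Esrrb Δ/Δ replicate 3 (0.93, edgeR adjusted p = 0.00126) or Esrrb fl/fl replicate 3 (0.97, edgeR adjusted p = 0.00167), and 19.5% of the exon bases of Pfkfb2 also lie in other genes, among them Yod1. Pfkfb1 and Pfkfb4 were called in none of the comparisons. Pfkfb4 had 2.87, 3.64 and 1.91 CPM in Esrrb fl/fl and 5.11, 4.45 and 6.03 in Esrrb Δ/Δ (log2 fold change 0.89 ± 0.24 SE, edgeR adjusted p = 0.0106, and 1.11, edgeR adjusted p = 0.00713 without Esrrb fl/fl replicate 2).

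The lower part of the pathway, from aldolase to pyruvate kinase, held the most abundant transcripts, and most of its differences stayed under the minimum fold change. Tpi1, which interconverts the triose phosphates, was called in CH, with 629, 839 and 668 CPM in DMSO and 354, 347 and 359.9 in CH. Its groups did not overlap and it fell (log2 fold change -1.01 ± 0.11 SE, edgeR adjusted p = 3.79e-05), at the edge of the minimum fold change. The value was -0.99, edgeR adjusted p = 0.000351 without CH replicate 2, -0.87, edgeR adjusted p = 7.64e-05 without DMSO replicate 2 and -0.99, edgeR adjusted p = 3.21e-06 without a filter on low counts. Aldoa, the main aldolase, had 2527, 2298 and 1774 CPM in DMSO, 1405, 1297 and 1399.6 in CH, 2772, 2160.4 and 2052 in Fgf2/Activin and 2067, 1764 and 1707 in 2i, and was not called (log2 fold change -0.69 ± 0.14 SE, edgeR adjusted p = 0.00242 for CH). Aldoc, its minor relative, had 57.3, 63.5 and 31.2 CPM in DMSO and 45.8, 22.1 and 25.1 in CH, which overlapped, and it made up 1.50 to 2.83% of the aldolase transcripts in CH and 1.55 to 2.41% in DMSO. Gapdh, Pgk1, Pgam1 and Pkm were likewise not called in CH or 2i, with log2 fold changes between -0.47 and 0.27. Gapdh had a log2 fold change of -0.16 ± 0.06 SE between CH and DMSO, and was the one of the 4 above 0 in 2i (log2 fold change 0.27 ± 0.06 SE, edgeR adjusted p = 0.00316).

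After deletion of Esrrb, these same abundant enzymes lay lower without reaching a log2 fold change of 1 in size. Gapdh, which makes NADH as it oxidises the triose, had 1459, 1466 and 1477 CPM in Esrrb fl/fl and 992, 1009 and 935 in Esrrb Δ/Δ (log2 fold change -0.58 ± 0.05 SE, edgeR adjusted p = 1.77e-05). Pkm, pyruvate kinase, had 3442, 4155 and 4231 CPM and 2316, 2799 and 2575 (log2 fold change -0.62 ± 0.09 SE, edgeR adjusted p = 0.000546), and 15.3% of its exon bases also lie in a predicted gene. Pgam1, the phosphoglycerate mutase, had 712, 828 and 834 and 481, 559 and 516 (log2 fold change -0.61 ± 0.08 SE, edgeR adjusted p = 0.000206). In all 3 genes the Esrrb Δ/Δ samples lay below the Esrrb fl/fl samples. Aldoa and Tpi1 were alike (log2 fold change -0.81 ± 0.17 SE, edgeR adjusted p = 0.00306, and log2 fold change -0.77 ± 0.18 SE, edgeR adjusted p = 0.00597), while Pgk1 overlapped between the groups through Esrrb fl/fl replicate 1 (log2 fold change -0.67 ± 0.19 SE, edgeR adjusted p = 0.0152). Of the 35 genes, 27 had a log2 fold change under 0 in this comparison, beside 49.8% of all genes tested. Every Esrrb Δ/Δ sample was below every Esrrb fl/fl sample in 19 of the 35, beside 31.5% of all genes, and 3.87% of all genes were called lower.

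Enolase is mostly Eno1 in these cells, and both of its relatives were called in CH where Eno1 was not. Eno1, the form of most tissues, had 2014, 2257 and 2059 CPM in DMSO, 2147, 2311 and 2398 in CH, 2175, 2131 and 2070.3 in Fgf2/Activin and 2386, 2319 and 2268 in 2i, and was called in no comparison. Eno3, the muscle form, had 47.9, 17.3 and 15.9 CPM in DMSO, 19.5, 11.0 and 10.1 in Fgf2/Activin, 9.64, 5.20 and 4.88 in CH and 10.6, 5.43 and 5.28 in 2i, with replicate 1 highest in each. CH lay below DMSO without overlap and Eno3 fell (log2 fold change -2.04 ± 0.49 SE, edgeR adjusted p = 0.00607). The call was lost in a fit of only the 6 samples (-2.04, edgeR adjusted p = 0.0207), without CH replicate 2 (-1.89, edgeR adjusted p = 0.0284), CH replicate 3 (-1.84, edgeR adjusted p = 0.0292) or DMSO replicate 1 (-1.34, edgeR adjusted p = 0.0203). With Esrrb deleted, Eno3 went the other way, from 9.09, 10.6 and 12.1 CPM to 52.7, 27.7 and 30.1, and was 3.48-fold higher after the deletion (log2 fold change 1.80 ± 0.25 SE, edgeR adjusted p = 0.000317). Its share of the enolase transcripts there was 1.21 to 1.35% in Esrrb fl/fl and 3.84 to 7.62% in Esrrb Δ/Δ. Eno2, the neuronal form, had 12.8, 7.51 and 5.98 CPM in DMSO and 5.01, 2.32 and 2.48 in CH, did not overlap and was called by a narrow margin (log2 fold change -1.42 ± 0.37 SE, edgeR adjusted p = 0.00936). The call held without CH replicate 1 and without DMSO replicate 3 and was lost without each of the other samples of the pair (adjusted p between 0.0165 and 0.043, edgeR). It was lost too in a fit of only the 6 samples (-1.42, edgeR adjusted p = 0.0361) and, narrowly, with at least 10 counts required in every sample. Between 2i and Fgf2/Activin, Eno2 was not called (edgeR adjusted p = 0.0166). It was called there with the block (log2 fold change -1.21, edgeR adjusted p = 7.94e-05 with the replicate block), by DESeq2 (DESeq2 adjusted p = 0.0033) and in a fit of only the 6 samples (-1.24, edgeR adjusted p = 0.00629).

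At the end of the pathway, the balance of the lactate dehydrogenases differed between the cultures. Ldha encodes the M subunit, which favours making lactate from pyruvate, and Ldhb the H subunit, which favours the reverse. Ldha had 1675, 2238 and 1904 CPM in DMSO, 2363, 2303 and 2267 in Fgf2/Activin, 1009.7, 1138 and 1239 in CH and 1225, 1079.5 and 1054 in 2i. Every sample of CH and 2i was below every sample of the other cultures, and Ldha fell in 2i (log2 fold change -1.05 ± 0.11 SE, edgeR adjusted p = 1.36e-05), though without 2i replicate 3 the value was -0.995, edgeR adjusted p = 0.000154. In CH it passed on adjusted p alone (log2 fold change -0.78 ± 0.11 SE, edgeR adjusted p = 0.000169). Ldhb had 355, 199 and 177 CPM in DMSO, 199, 141 and 146 in Fgf2/Activin, 889, 469.8 and 460.0 in CH and 1044, 533 and 531 in 2i. Replicate 1 was the highest sample of each group, CH and 2i lay above the other cultures without overlap, and Ldhb was 4.34-fold higher in 2i than in Fgf2/Activin (log2 fold change 2.12 ± 0.37 SE, edgeR adjusted p = 0.000624). Between CH and DMSO it missed the threshold (log2 fold change 1.32 ± 0.36 SE, edgeR adjusted p = 0.0123). It was called with the block (log2 fold change 1.31, edgeR adjusted p = 8.80e-07 with the replicate block), by DESeq2 (DESeq2 adjusted p = 0.00107), without a filter on low counts (1.33, edgeR adjusted p = 0.00431) and without DMSO replicate 1 (1.69, edgeR adjusted p = 0.00434). Between the Esrrb groups Ldhb differed little (246, 240.2 and 234 CPM in Esrrb fl/fl and 233, 221 and 218 in Esrrb Δ/Δ), while Ldha had 1041, 1593 and 1593 and 541, 798 and 700.0 CPM. The Esrrb Δ/Δ samples were all lower and Ldha fell (log2 fold change -1.05 ± 0.18 SE, edgeR adjusted p = 0.00116). The log2 fold change fell short of 1 in size without Esrrb Δ/Δ replicate 1 (-0.91, edgeR adjusted p = 0.00245), Esrrb fl/fl replicate 2 (-0.96, edgeR adjusted p = 0.0051) or Esrrb fl/fl replicate 3 (-0.96, edgeR adjusted p = 0.0053). Per kilobase, Ldhb made up 15.8 to 30.9% of the pair in DMSO and 11.4 to 15.1% in Fgf2/Activin, 43.9 to 65.0% in CH, 51.0 to 64.2% in 2i, 23.7 to 33.2% in Esrrb fl/fl and 36.8 to 47.6% in Esrrb Δ/Δ.

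Ldhd, a mitochondrial dehydrogenase of D-lactate, was scarce. It had 4.12, 1.18 and 0.765 CPM in Fgf2/Activin and 29.5, 7.67 and 7.19 in 2i, and 7.31, 2.28 and 1.04 in DMSO and 17.8, 4.41 and 4.48 in CH. Replicate 1 was far above the others in all 4 cultures, and the gene was called there with the block (log2 fold change 2.90, edgeR adjusted p = 2.27e-07 with the replicate block, for 2i, and 1.36, edgeR adjusted p = 7.46e-05 with the replicate block, for CH). Without the block edgeR did not call it (adjusted p = 0.0243 and 0.259), while DESeq2 called it in 2i (DESeq2 adjusted p = 0.00886). In Esrrb Δ/Δ it was lower than in Esrrb fl/fl in all samples (3.80, 3.21 and 3.59 against 6.69, 6.97 and 7.92 CPM; log2 fold change -1.03 ± 0.14 SE, edgeR adjusted p = 0.000342). The call was lost at -0.97, edgeR adjusted p = 0.00205 without Esrrb Δ/Δ replicate 2 and -0.96, edgeR adjusted p = 0.00243 without Esrrb fl/fl replicate 3. Of its exon bases, 42.2% also lie in Znrf1, and reads of the 2 genes cannot be separated there without strand.

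The promoters of Ldha and Ldhb are set beside each other because the pair moved in opposite directions in 2i. Both are RefSeq's for GRCm38.p6, 300 bases on the gene's strand, Ldha at chr7:46845554-46845853, plus strand, and Ldhb at chr6:142507908-142508207, minus strand, with ACGTG on either strand in capitals and, where the palindrome CACGTG contains it on both strands, all of CACGTG.
Ldha: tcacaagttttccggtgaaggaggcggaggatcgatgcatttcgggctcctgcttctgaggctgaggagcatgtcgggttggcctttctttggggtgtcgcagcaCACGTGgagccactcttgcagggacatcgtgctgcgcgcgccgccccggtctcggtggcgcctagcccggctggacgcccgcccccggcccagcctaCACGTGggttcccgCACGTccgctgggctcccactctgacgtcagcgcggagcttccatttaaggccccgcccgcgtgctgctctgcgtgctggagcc
Ldhb: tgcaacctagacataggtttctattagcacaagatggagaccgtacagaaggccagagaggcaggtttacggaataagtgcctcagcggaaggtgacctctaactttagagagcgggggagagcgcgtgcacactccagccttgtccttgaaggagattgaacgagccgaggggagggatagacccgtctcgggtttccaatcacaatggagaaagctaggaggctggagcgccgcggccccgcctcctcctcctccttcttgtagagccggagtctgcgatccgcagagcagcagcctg
The Ldha window holds the letters in 3 places, of which 2 read CACGTG, and the Ldhb window holds no match. A further Ldha window of the table, at the start of another transcript, held no match either.

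**Figure D3:**
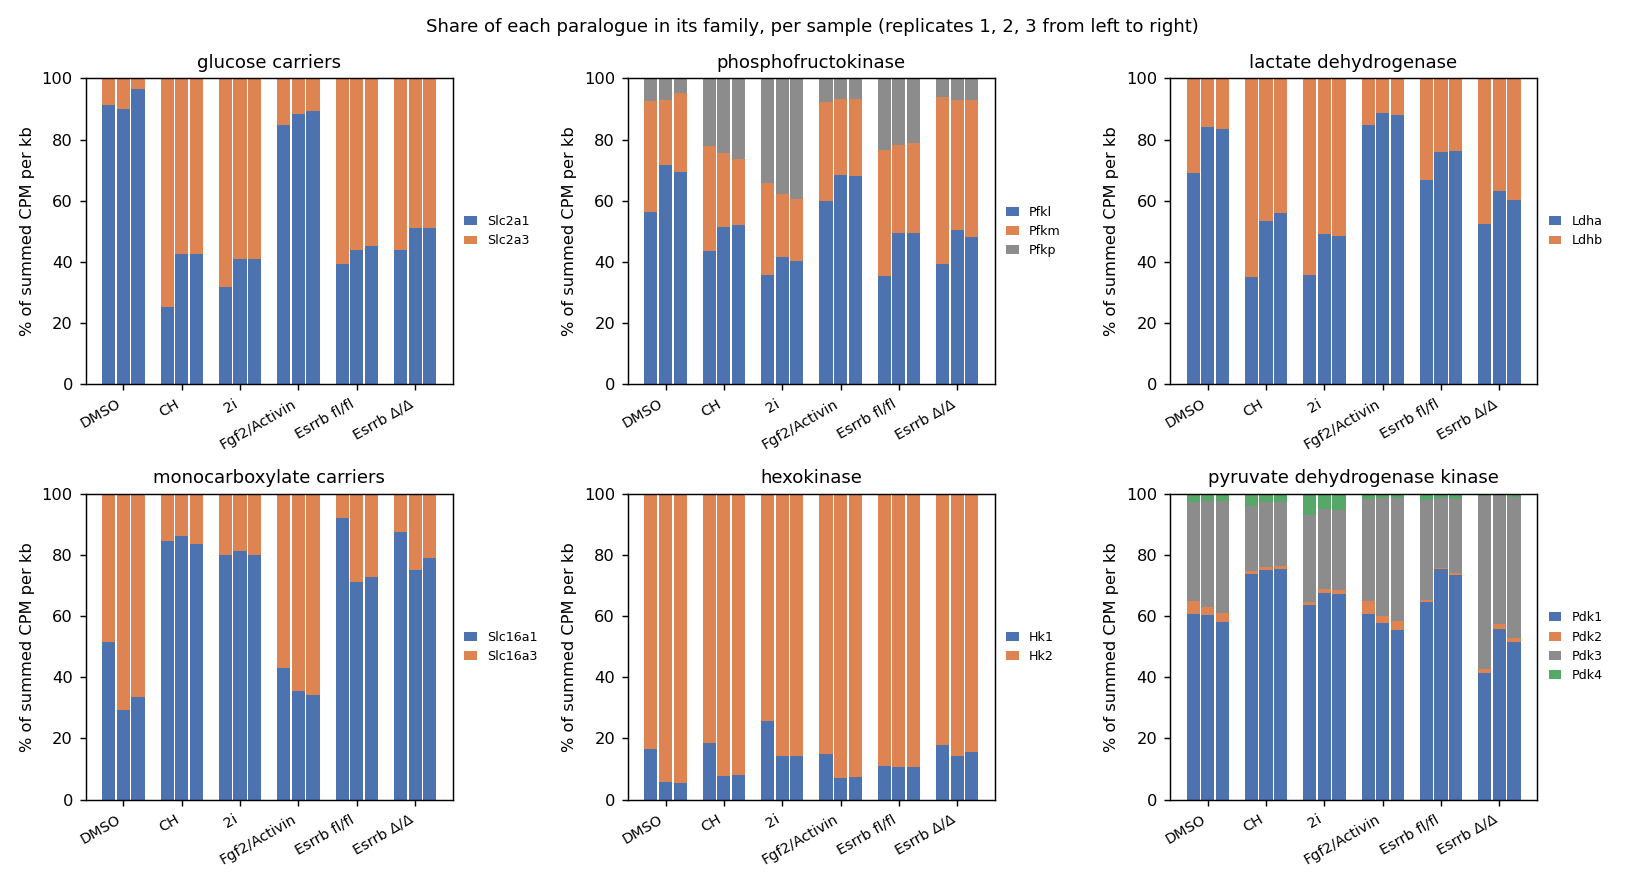
Share of each paralogue in the summed CPM per kilobase of its family (vertical axes, percent) in each of the 18 samples, grouped along the horizontal axes with replicates 1, 2 and 3 from left to right. Slc2a3, Pfkp, Ldhb and Slc16a1 hold larger shares in CH and 2i than in DMSO and Fgf2/Activin, and the share of Pfkp is 21.0 to 23.4% in Esrrb fl/fl and 5.98 to 7.15% in Esrrb Δ/Δ.

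Pyruvate enters the mitochondrial pathway through pyruvate dehydrogenase, which the Pdk kinases switch off and the phosphatase Pdp1 switches on. Pdk1, the leading kinase in all groups but Esrrb Δ/Δ replicate 1, had 302, 289 and 209.7 CPM in DMSO and 484, 387 and 426 in CH, and 171, 275 and 273 in Esrrb fl/fl and 91.4, 148 and 133 in Esrrb Δ/Δ. It did not overlap in either pair and was not called (log2 fold change 0.70 ± 0.17 and -0.95 ± 0.21 SE), but passed without Esrrb fl/fl replicate 1 (-1.15, edgeR adjusted p = 0.000535) or Esrrb Δ/Δ replicate 2 (-1.10, edgeR adjusted p = 0.00569). Pdk3, the next by level, had 28.7, 27.3 and 29.6 CPM in Esrrb fl/fl and 41.2, 36.7 and 39.3 in Esrrb Δ/Δ, was not called and made up 22.7 to 33.0% of the kinases in Esrrb fl/fl and 42.1 to 56.6% in Esrrb Δ/Δ. Pdk4, a kinase induced by fasting in many tissues, had 4.18, 2.76 and 2.64 CPM in Fgf2/Activin and 16.2, 10.5 and 11.2 in 2i, did not overlap and rose in 2i (log2 fold change 1.98 ± 0.32 SE, edgeR adjusted p = 0.000353). In DMSO it had 6.24, 4.94 and 3.66 and in CH 12.1, 6.08 and 7.16 CPM, which overlapped (log2 fold change 0.77 ± 0.31 SE, edgeR adjusted p = 0.0658). Pdk4 fell after the deletion, from 2.23, 2.41 and 3.00 CPM to 0.633, 0.574 and 1.15 (log2 fold change -1.69 ± 0.29 SE, edgeR adjusted p = 0.00103). These levels rest on few reads, 42, 47 and 58 counts in Esrrb fl/fl and 13, 12 and 24 in Esrrb Δ/Δ. Pdk2, as scarce, lay higher after the deletion, with 11, 15 and 22 counts in Esrrb fl/fl and 25, 39 and 32 in Esrrb Δ/Δ, and was not called there. Pdk2 had 8.78, 5.20 and 4.40 CPM in DMSO and 9.44, 4.01 and 4.38 in Fgf2/Activin, against 1.91, 1.70 and 2.00 in CH and 2.02, 2.42 and 2.03 in 2i. It fell in CH (log2 fold change -1.71 ± 0.35 SE, edgeR adjusted p = 0.00257) and in 2i (log2 fold change -1.46 ± 0.35 SE, edgeR adjusted p = 0.00471), with no overlap. The call in CH was lost without CH replicate 2 (-1.65, edgeR adjusted p = 0.0133). That in 2i was lost without any of the 2i samples (edgeR adjusted p between 0.0136 and 0.0207), without Fgf2/Activin replicate 1 (-0.95, edgeR adjusted p = 0.0177) and in a fit of only the 6 samples (-1.47, edgeR adjusted p = 0.0102).

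The target and the counterpart of these kinases moved by less than the minimum fold change. Pdha1, the catalytic subunit that the kinases phosphorylate, had 158 to 191 CPM in DMSO and Fgf2/Activin and 304 to 321 in CH and 2i. All 6 samples with CHIR99021 were higher, and the differences passed on adjusted p alone (log2 fold change 0.90 ± 0.08 SE, edgeR adjusted p = 6.36e-06 for CH, and log2 fold change 0.82 ± 0.08 SE, edgeR adjusted p = 7.76e-06 for 2i), with 16.2% of its exon bases also in Map3k15. The Esrrb line, grown in CH in both groups, had 302 to 350.1 CPM. Pdp1 had 14.4 to 17.7 CPM in Fgf2/Activin and 8.38 to 9.54 in 2i (log2 fold change -0.85 ± 0.12 SE, edgeR adjusted p = 0.00018). Pcx, which carboxylates pyruvate to oxaloacetate, had 19.2 ± 2.70 CPM (SD, n = 3) in Fgf2/Activin and 36.6 ± 2.35 in 2i (log2 fold change 0.93 ± 0.17 SE, edgeR adjusted p = 0.00105). It passed the minimum fold change without Fgf2/Activin replicate 1 (1.06, edgeR adjusted p = 0.0014).

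Lactate leaves the cell through monocarboxylate carriers, and the largest difference among the 35 genes was in one of them. Slc16a3 encodes Mct4, the carrier of lactate-exporting cells, and had 260.3, 441 and 371 CPM in DMSO and 422, 432 and 439 in Fgf2/Activin, against 33.0, 29.0 and 36.3 in CH and 39.1, 36.5 and 37.7 in 2i. The highest sample of CH and 2i was far below the lowest of the other cultures. Slc16a3 was 10.9-fold lower in CH than in DMSO (log2 fold change -3.45 ± 0.17 SE, edgeR adjusted p = 1.21e-07) and 11.4-fold lower in 2i than in Fgf2/Activin (log2 fold change -3.51 ± 0.17 SE, edgeR adjusted p = 5.91e-08), and both calls held without any 1 of the samples. Its levels were 24.3, 108 and 105 CPM in Esrrb fl/fl and 30.7, 80.5 and 63.1 in Esrrb Δ/Δ, replicate 1 being the lowest of both, and the groups overlapped (log2 fold change -0.45 ± 0.51 SE, edgeR adjusted p = 0.477). Slc16a1 encodes Mct1, a carrier that works in both directions, and had 232, 151 and 156 CPM in DMSO, 150.1, 152 and 156 in CH, 265, 197 and 190.3 in Fgf2/Activin and 130.5, 130.5 and 126 in 2i. The 2i samples were below all those of Fgf2/Activin, and CH overlapped DMSO. It was not called (log2 fold change -0.24 ± 0.16 SE, edgeR adjusted p = 0.26 for CH, and log2 fold change -0.75 ± 0.16 SE, edgeR adjusted p = 0.00238 for 2i). Per kilobase, Slc16a3 made up 48.3 to 70.9% of the pair in DMSO and 57.0 to 65.8% in Fgf2/Activin, and 13.7 to 16.3% in CH, 18.9 to 20.0% in 2i, 7.76 to 28.8% in Esrrb fl/fl and 12.4 to 24.9% in Esrrb Δ/Δ.

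Several glycolytic genes have processed pseudogenes, copies of the spliced transcript elsewhere in the genome, and reads can be split between gene and copy. Copies at other loci that had at least 50% of a transcript matching the gene, in stretches of 75 bases or more at 95% identity or more, were counted for each gene. Gapdh had 100 such genes, 97 of them pseudogenes, and they held 3.20 to 4.01% of the counts of Gapdh and its copies in the E14 samples and 13.6 to 14.2% in the Esrrb line. Eno1 had 3, chiefly the gene Eno1b, with 9.03 to 10.3% in E14 and 5.79 to 6.03% in the Esrrb line. Gpi1 had 1, Gm1840, with 3.09 to 3.54% in E14 and 0.031 to 0.073% in the Esrrb line. The ranges of the 2 lines did not overlap for any of these 3 genes. For every other gene of the 35 the copies held at most 0.097% of the counts. With the counts of the copies added to their genes, each of the 10 numbers of calls above was the same. This covers only reads that were counted on a gene or on a copy. Reads that match both equally well may be missing from both counts, and adding the copies cannot recover them or test their effect. A low share of counts on the copies thus does not show that few reads were shared. The part of the longest transcript that matched copies was 85.64% in Eno1, 76.84% in Ldhb and 0% in genes such as Slc2a1. The paralogues within the families, such as Ldha and Ldhb, had no such match to each other.

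**Figure D4:**
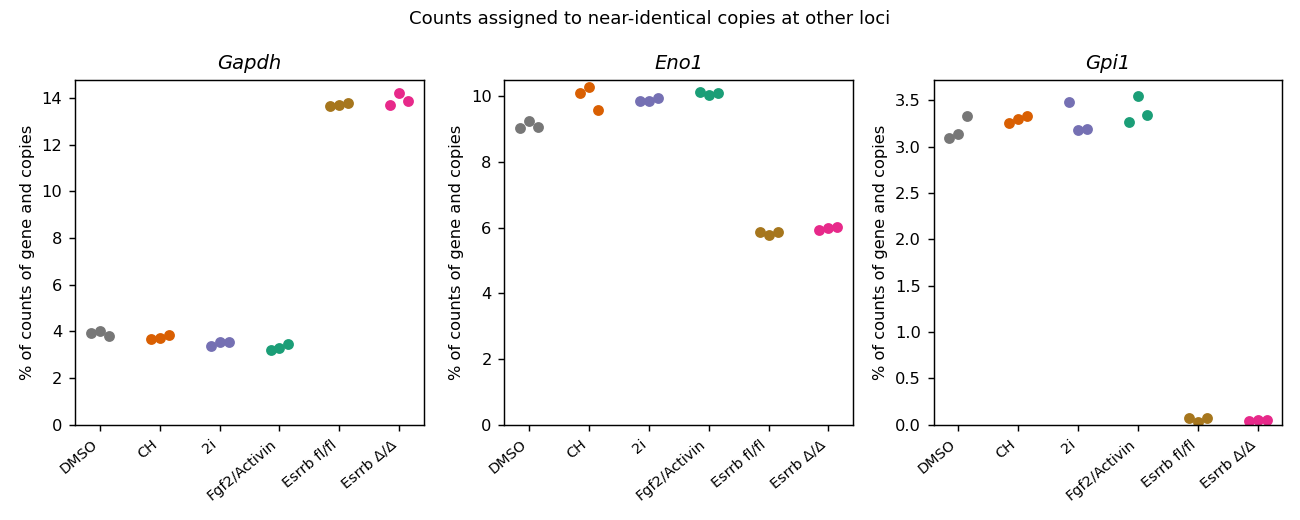
Counts assigned to near-identical copies at other loci, as a percentage of the counts of the gene and its copies (vertical axes), for Gapdh, Eno1 and Gpi1 in each of the 18 samples, grouped along the horizontal axes with replicates 1, 2 and 3 from left to right. The 12 E14 samples and the 6 samples of the Esrrb line form separate levels in each panel.

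Genes of the surrounding pathways were listed alongside. Of 32 tested genes of other glucose and pyruvate steps, edgeR called 3 higher and 3 lower between CH and DMSO, and 4 higher and 5 lower between 2i and Fgf2/Activin, beside the shares of all genes given above. Fbp1, the gluconeogenic enzyme that opposes phosphofructokinase, had 16.1 to 25.3 CPM in DMSO and 1.87 to 2.40 in CH (log2 fold change -3.19 ± 0.23 SE, edgeR adjusted p = 1.61e-06) and fell in 2i too (log2 fold change -1.15 ± 0.21 SE, edgeR adjusted p = 0.000804). Mpc1, a subunit of the carrier that takes pyruvate into mitochondria, rose in CH (log2 fold change 1.73 ± 0.18 SE, edgeR adjusted p = 2.44e-05) and in 2i (log2 fold change 1.52 ± 0.18 SE, edgeR adjusted p = 3.77e-05). Its partner Mpc2 rose in 2i (log2 fold change 1.29 ± 0.21 SE, edgeR adjusted p = 0.000389). Slc16a7, which encodes Mct2, a carrier with a high affinity for pyruvate and lactate, was called lower in both, with 1.03 to 2.24 CPM in DMSO and 1.32 to 2.08 in Fgf2/Activin but 0.0654 to 0.170 in CH and 0.0295 to 0.0697 in 2i. Hk3, another hexokinase, was called lower in 2i (0 to 0.0697 CPM, against 0.451 to 0.904 in Fgf2/Activin). At so few reads a fold change depends on the prior count. In the Esrrb line 3 of 27 were called higher and 1 lower, beside 12.8 and 3.87% of all genes. Slc16a7 was called higher after the deletion, with 0.0512 to 0.106 CPM in Esrrb fl/fl and 0.633 to 1.39 in Esrrb Δ/Δ, and Fbp1 (log2 fold change 1.33 ± 0.32 SE, edgeR adjusted p = 0.00682) and Pgam2, the muscle phosphoglycerate mutase (log2 fold change 1.59 ± 0.19 SE, edgeR adjusted p = 0.000156), rose too. Of 8 tested genes of the pentose phosphate pathway beyond G6pdx, 1 was called in 2i, the transketolase relative Tktl1 (log2 fold change -1.29 ± 0.28 SE, edgeR adjusted p = 0.00295), beside 14.4% of all genes called lower. In CH edgeR and DESeq2 called 0 of the 8, with 1 higher and 3 lower at an unadjusted p under 0.05, and in the Esrrb line 0, with 1 higher and 5 lower. These calls too stand beside the shares of all genes given above.

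Genes known to respond to low oxygen, a condition under which many glycolytic genes rise, were also listed. Of 24 tested, 8 fell in CH and 8 in 2i, beside 10.2 and 14.4% of all genes, and edgeR and DESeq2 called 0 higher in either, with 1 and 3 higher at an unadjusted p under 0.05. Adm, which encodes the peptide adrenomedullin, had 2.11 to 29.1 CPM in DMSO and 0.320 to 0.443 in CH (log2 fold change -4.93 ± 0.95 SE, edgeR adjusted p = 0.00167), and 7.10 to 22.0 in Fgf2/Activin and 0.147 to 0.453 in 2i (log2 fold change -5.82 ± 1.00 SE, edgeR adjusted p = 0.000548). Egln3, a prolyl hydroxylase that marks hypoxia-inducible factors for breakdown, fell too (log2 fold change -2.67 ± 0.44 SE, edgeR adjusted p = 0.000588 in CH, and log2 fold change -3.34 ± 0.45 SE, edgeR adjusted p = 0.000102 in 2i). The list's median log2 fold change was -0.37 in CH and -0.57 in 2i. In the Esrrb line 3 of 22 were called higher and 2 lower, beside 12.8 and 3.87%, led by Bhlhe40, a repressor of transcription (log2 fold change 2.83 ± 0.22 SE, edgeR adjusted p = 1.82e-05), and Ndrg1, a stress-induced gene (log2 fold change -1.60 ± 0.17 SE, edgeR adjusted p = 7.30e-05). Slc2a1, Slc16a3 and Ldha lay lower in the same cultures as these genes, and the part of oxygen in any of these differences was not tested.

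**Figure D5:**
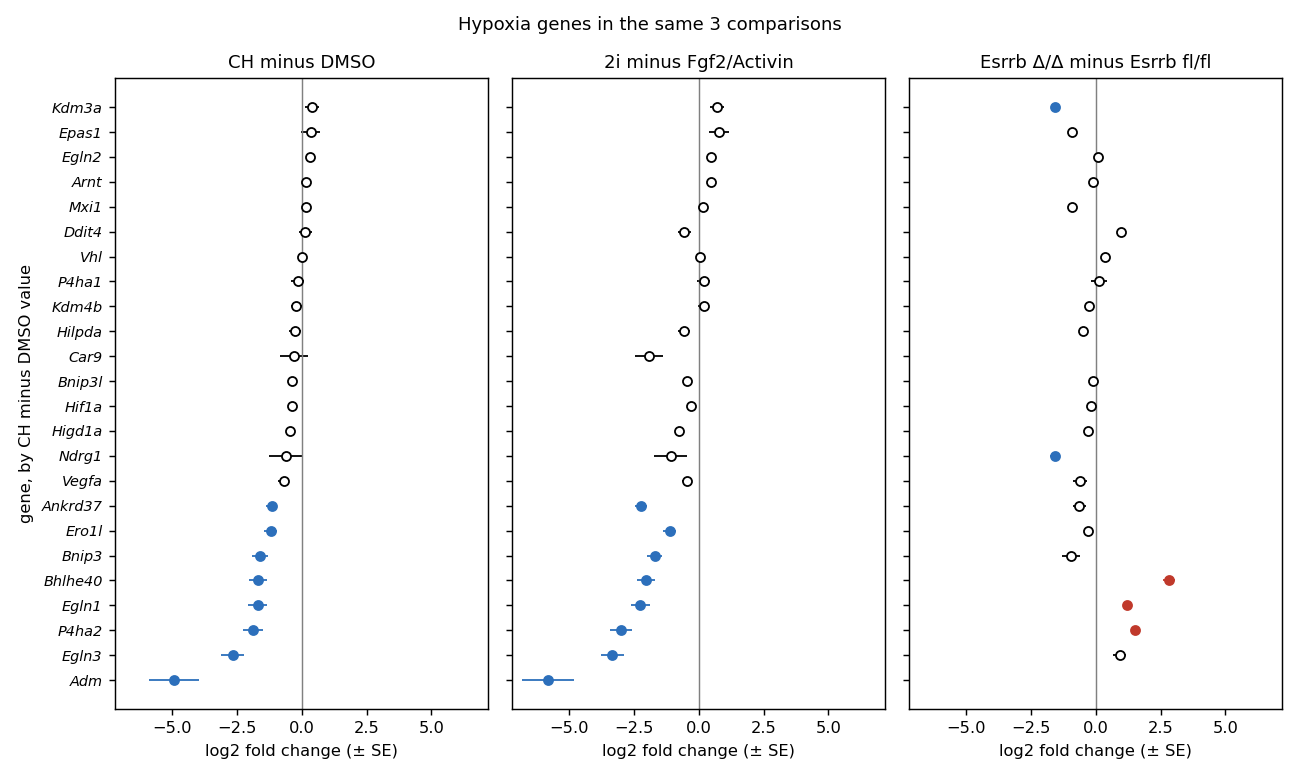
Log2 fold change (horizontal axes, with the standard error as a bar) of the listed hypoxia genes (vertical axis, ordered by CH minus DMSO) in 3 comparisons with 3 samples per group. Filled red points were called higher, filled blue points lower and open points were not called. The 8 blue points of CH are also blue in 2i, while Bhlhe40, Egln1 and P4ha2 of these 8 are red in the Esrrb line.

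Promoter windows were found in RefSeq's table for 33 of the 35 genes, all but Slc2a3 and Pdp1, in 53 windows. ACGTG, on either strand, stood in at least 1 window of 20 of the 33, beside 21.8% of the 27025 genes with a window, and the longer CACGTG, which contains it, in 8, beside 8.09%. AAGGTCA, a half-site of nuclear receptors and the core of the Esrrb motif, stood in 3 (Eno1, Pfkfb1 and Tpi1), beside 5.38%. The 33 genes had 53 windows and the 27025 genes 32851. The members thus had more windows per gene, which raises the chance of a match in at least 1. The median GC content was 60.0% over the members' windows and 52.7% over all windows. Of the 7 genes called lower in CH, 3 had ACGTG in a window (Slc2a1, Pdk2 and Slc16a3), and so had 17 of the 25 that were not called. In 2i against Fgf2/Activin, 4 of the 5 called lower had it, 1 of the 4 called higher with a window and 15 of the 24 not called. In Esrrb Δ/Δ, 2 of the 4 called lower had it, 1 of the 2 called higher and 17 of the 27 not called. Pfkp, the gene with the largest fall after deletion of Esrrb, had neither ACGTG nor AAGGTCA in its window, which says only that these letters are not within it.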

How the data were processed

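Poly(A) RNA of 18 mouse ES cell samples in 6 groups was sequenced. Per the study's methods, the authors aligned reads with TopHat2 to mm10 and counted them per Ensembl GRCm38 gene with htseq-count without strand. The deposited values are raw counts per gene, not normalised, whose totals (19915222 to 37158661 per sample) set the precision. The Ensembl release is not given in the sources used here, and symbols were taken from GENCODE M21. The rule for the members uses symbols and a count minimum and no measured difference, but the members and lists were chosen with earlier results of these data known.

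Groups came from the labels. Counts were tested with edgeR 4.0.16 (TMM scaling, filterByExpr, quasi-likelihood test, Benjamini-Hochberg adjustment over all genes tested), in one model of the 12 E14 samples and one of the 6 samples of the Esrrb line. Calls needed an adjusted p under 0.01 and a log2 fold change beyond 1 in size, thresholds taken from the study's methods. CPM were computed from the counts on TMM-scaled library sizes. Values per sample are given for called members and the 2 leading relatives of each family. From each list, up to 2 called genes with the largest change were named per comparison, and Mpc1, Mpc2, Egln1, P4ha2 and Fbp1 outside CH were named after their values were seen. The deviations from group means of same-numbered samples of 2 groups correlated at r = 0.33 to 0.82, with every pair above 0.1. Replicate 2 of one group with replicate 3 of the other gave r = 0.29 to 0.70. Replicate 1 with replicate 2 or 3 gave r = -0.78 to -0.39. These values set replicate 1 apart and cannot show that numbers 2 and 3 pair samples. A fit with the replicate number as a block was run as an alternative. Copies were found with blastn 2.17.0. On simulated counts with 200 genes changed 3-fold, the test called 100% of them in both the CH (15970 genes) and Esrrb (14658 genes) comparisons. The simulation gave every gene the same small spread, changed only well-counted genes and did not set replicate 1 apart. It checks that the code runs as meant and does not give the share of 3-fold changes found in these data. Alternatives were DESeq2 1.42.0 (test and size factors), other count filters, no minimum fold change, the block, only the 6 samples compared, and leaving out each sample. R 4.3.3 was used.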

Additional observations from a re-analysis of the deposited data

How the results depend on the processing

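Without the minimum fold change, the genes called numbered 4 higher and 12 lower in CH against DMSO, 8 and 10 in 2i against Fgf2/Activin, and 4 and 16 in Esrrb Δ/Δ against Esrrb fl/fl, beside 13.7 and 15.3%, 17.8 and 19.9%, and 24.6 and 19.9% of all genes. With the replicate block, 4 were called higher in CH, while the counts of lower calls and those of the other comparisons stayed within 1.5 times. In a fit of only the 6 samples compared, 0 were called higher in CH. Leaving out 1 sample gave 1 to 4 higher and 3 to 7 lower in CH, 5 to 6 and 3 to 5 in 2i, 0 to 1 lower in Fgf2/Activin against DMSO, and 1 to 3 higher and 2 to 5 lower in Esrrb Δ/Δ. The lowest counts came without CH replicate 2 (3 lower), 2i replicate 3 (3 lower), DMSO replicate 3 (1 higher) and Esrrb fl/fl replicate 3 (1 higher and 2 lower), and 4 lower were left in CH without DMSO replicate 2. DESeq2, its size factors, other count filters and added copies kept each count within 1.5 times. With the counts of near-identical genes added, which was chosen after seeing the data, the numbers called were unchanged. Reads left out of both counts because they match gene and copy equally well are not covered by that setting. The planned version, adding every gene with a match, was not run, because shared repeats matched unrelated genes.

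Values of single genes without 1 sample were compared for all 35 genes in CH against DMSO, 2i against Fgf2/Activin and Esrrb Δ/Δ, but for 3 genes in 2i against CH and 4 in Fgf2/Activin against DMSO. Among these, the direction reversed in 12 cases, none of them a called value. Over all such omissions, the log2 fold change in CH ran from -0.036 (without CH replicate 1) to 0.76 for Hk1, from -0.30 to 0.23 (without DMSO replicate 2) for Hk2 and from -0.60 to 0.19 (without DMSO replicate 1) for Pfkfb1. In 2i against Fgf2/Activin it ran from -0.18 to 0.042 (without Fgf2/Activin replicate 2) for Hk2 and from -0.13 (without 2i replicate 1) to 0.42 for Pfkfb1. For Ldhd it ran from -0.26 (without 2i replicate 1) to 1.73 in 2i against CH, and from -1.87 to 0.28 (without DMSO replicate 1) in Fgf2/Activin against DMSO. For Pfkfb3 in Esrrb Δ/Δ it ran from -0.20 to 0.023 (without Esrrb Δ/Δ replicate 1). The cause was not tested.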
